A study of Caenorhabditis elegans with 12 samples.

Results

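Glycolysis splits glucose into pyruvate, gluconeogenesis runs back from oxaloacetate to glucose, the pyruvate dehydrogenase complex turns pyruvate into acetyl-CoA, and the citric acid cycle oxidises acetyl-CoA in the mitochondrion. The genes described here are 45 genes of Caenorhabditis elegans that encode the enzymes of these pathways, chosen by their WormBase symbols out of 46748 genes in a table of gene counts. They comprise 9 genes for the hexose steps of glycolysis, from hexokinase to triosephosphate isomerase, and 9 for the triose steps, from glyceraldehyde-3-phosphate dehydrogenase to pyruvate kinase. A single gene encodes lactate dehydrogenase, 4 belong to gluconeogenesis and 4 to pyruvate dehydrogenase. For the citric acid cycle there are 11 genes from citrate synthase to succinyl-CoA and 7 from succinyl-CoA back to oxaloacetate. The cytosolic forms aco-1, idh-1 and mdh-1 are counted among them, and succinate dehydrogenase is not. All 45 were found and all passed the filter on low counts.

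RNA of whole wild-type N2 hermaphrodites had been sequenced in 12 libraries, 3 in each of 4 groups. A pair of groups had been kept with 0.1% DMSO, for a time the labels do not state, and was collected at 5 or at 15 days of age. The other pair had received 100 nM rotenone for 24 h from the fourth larval stage (L4) and was collected at the same ages. The labels do not say whether the rotenone worms also received DMSO, what marks day 0 of the stated age, how progeny were removed, or whether the 3 libraries of a group came from separate cultures, so p-values measure only the spread between these libraries, which may be technical.

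Rotenone blocks complex I of the respiratory chain, the enzyme that takes electrons from the NADH made by pyruvate dehydrogenase and by the citric acid cycle. Lactate dehydrogenase takes electrons from NADH onto pyruvate in the cytosol. Several steps in the worm have more than one gene, and the copies can differ in tissue or compartment. The paralogues gpd-2 and gpd-3 are known mainly from post-embryonic body wall muscle, and gpd-1 and gpd-4 from embryos and more broadly. Malate dehydrogenase, aconitase and NADP isocitrate dehydrogenase each have a cytosolic form (mdh-1, aco-1, idh-1) and a mitochondrial form (mdh-2, aco-2, idh-2).

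Libraries held between 34307432 and 53716605 counts. The 45 genes took 1.09 to 1.15% of all counts in the DMSO libraries at 5 days and 1.2 to 1.22% after rotenone, against 0.989 to 1.01% and 1.01 to 1.03% at 15 days. Levels are given as CPM (counts divided by the scaled library total in units of 1000000), each library scaled by its TMM factor (a trimmed mean over genes), and values for 3 libraries follow the order of replicates 1 to 3. Markers of body wall muscle, intestine, germ line, neurons, pharynx and epidermis were all detected, and 1 of 7 sperm markers stood at 0 in both 5-day groups, where the sum of the sperm list was 1.48 to 2.55 CPM. The DMSO library of replicate 2 at 5 days was the highest of its group for 38 of the 45 genes, against 33.7% of all genes tested. Leaving it out left 23 of the 45 past the threshold for rotenone at 5 days, as many as with it but not the same genes. Without that library dld-1 and suca-1 were lost, and aco-2 and gpd-3 passed. In whole-worm RNA, a change in the number of cells of a type and a change in the RNA of a gene per cell cannot be told apart.

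Per length of transcript, the most abundant member in DMSO worms at 5 days was the aldolase gene aldo-2, at 616 ± 25.0 CPM per kb (SD, n = 3). The enolase gene enol-1 followed at 495 ± 22.6 CPM per kb and the citrate synthase gene cts-1 at 447 ± 9.90 CPM per kb. At 15 days in DMSO the first was again aldo-2, at 479 ± 12.0 CPM per kb, followed by cts-1 at 401 ± 4.22 CPM per kb and enol-1 at 374 ± 3.00 CPM per kb, whose ranges over libraries did not overlap. The lowest member was the phosphofructokinase copy pfk-1.2, with 18 to 45 counts in a library. The next lowest was the isocitrate dehydrogenase copy idhg-2, with 197 to 557 counts.

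At 5 days, rotenone went with higher RNA of lactate dehydrogenase, cytosolic aconitase and the minor aldolase and phosphoenolpyruvate carboxykinase copies, and with lower RNA of pyruvate dehydrogenase subunits and of a minor subunit of NAD isocitrate dehydrogenase. Of the 45 genes, 7 rose and 16 fell at an adjusted p under 0.05 (edgeR's quasi-likelihood test, adjusted over 17166 genes), while 44.7% of all genes tested were called, 21.3% rising and 23.3% falling. The members' 51.1% is close to that background. Their median log2 difference was -0.03, beside 0.03 over all genes. Libraries did not overlap for 10 members that were higher and 18 that were lower, against 54.3% of all genes in either direction, 27.7% higher and 26.5% lower.

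**Figure D1:**
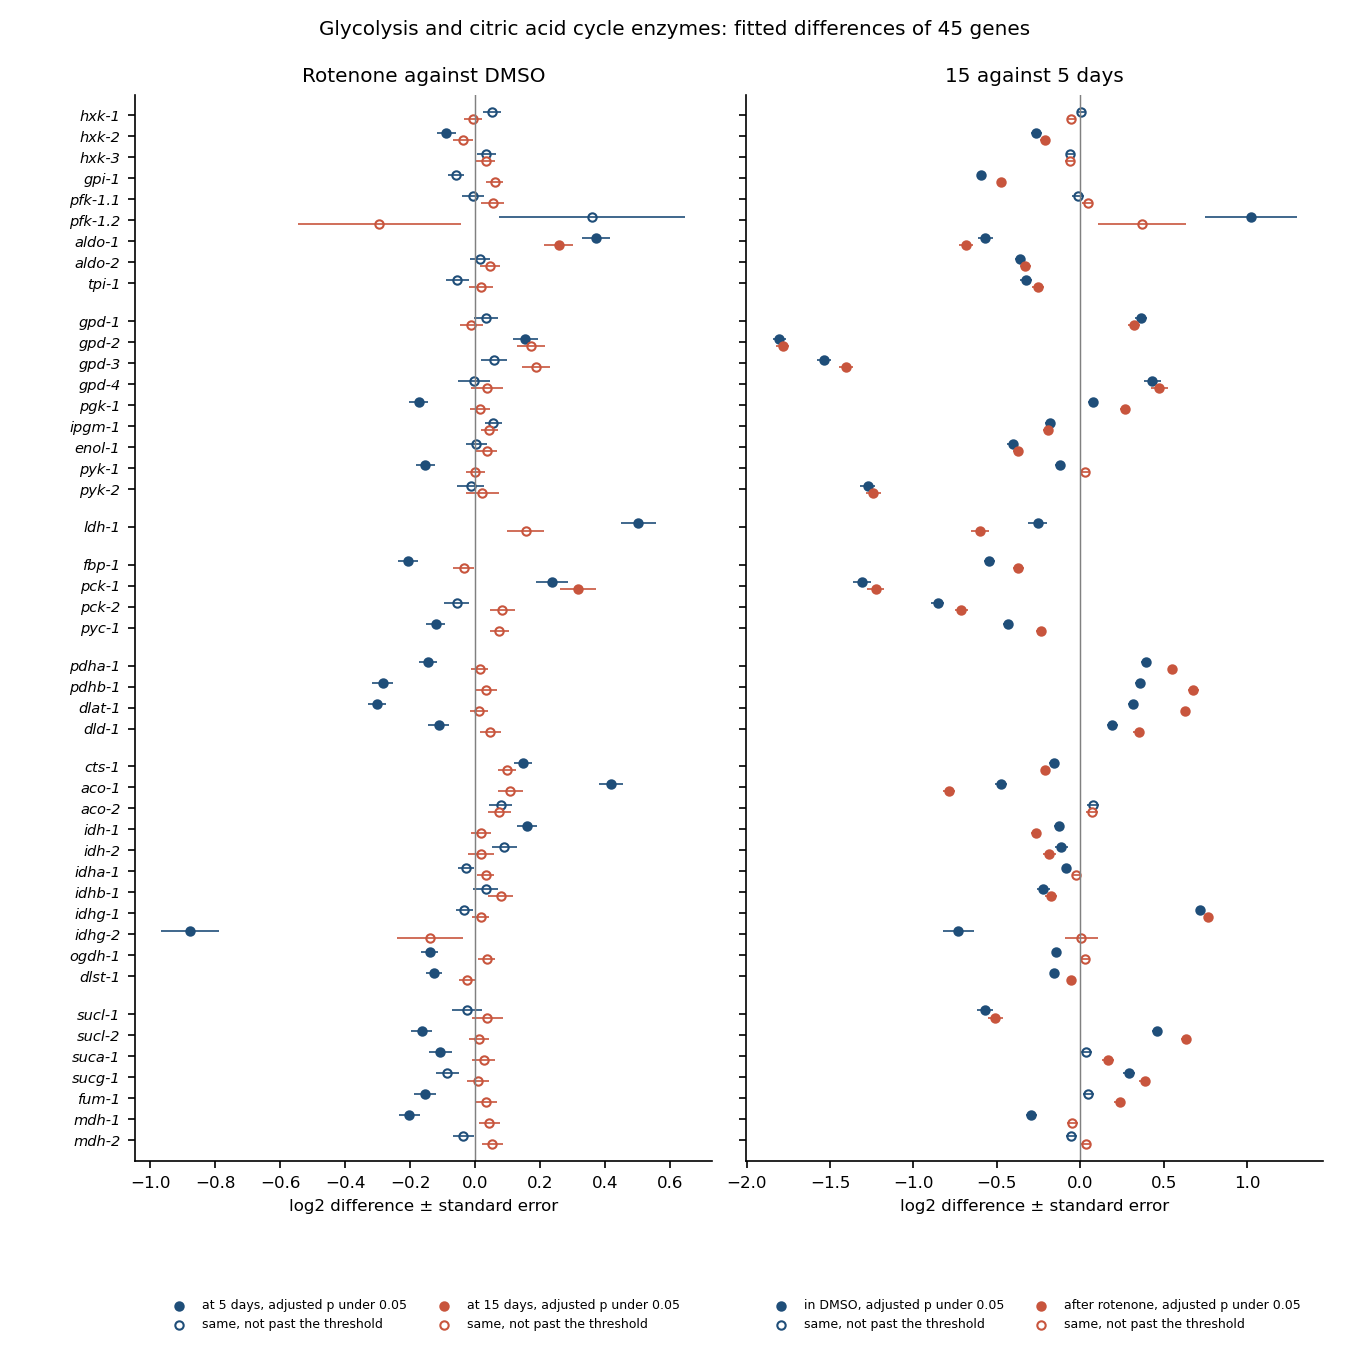
Fitted log2 differences with their standard errors for the 45 genes, grouped by pathway from top to bottom, for rotenone against DMSO (left, at 5 and 15 days) and for 15 against 5 days (right, in DMSO and after rotenone). Filled points passed the threshold of 0.05 on the adjusted p. At 5 days 7 genes rose and 16 fell after rotenone, and at 15 days aldo-1 and pck-1 rose.

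These counts depended on the scaling. With library totals in place of TMM factors, the median of all genes at 5 days moved from 0.03 to 0.15 and 22 members rose and 5 fell. Of the 17166 genes tested, 6500 rose and 1772 fell with library totals. With both scalings 12 members passed the threshold in the same direction, namely aldo-1, gpd-2, ldh-1, pck-1, cts-1, aco-1 and idh-1 upward and fbp-1, pdhb-1, dlat-1, idhg-2 and mdh-1 downward. TMM factors alone called 11 others, and library totals alone 15. How many of all genes passed with both scalings was not counted.

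**Figure D2:**
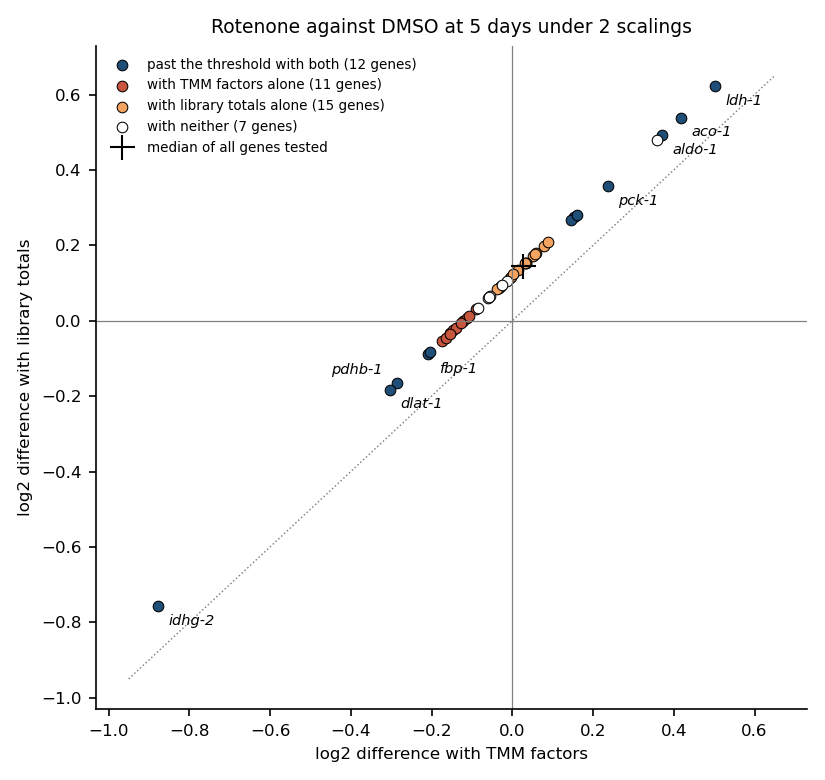
Log2 difference of rotenone against DMSO at 5 days with TMM factors (horizontal) and with library totals (vertical), 1 point for each of the 45 genes and a cross for the median of all genes tested, with a dotted line of equal values. Points lie on a line above the line of equal values, and 12 genes passed the threshold with both scalings, 11 with TMM factors alone and 15 with library totals alone.

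The gene ldh-1 (chromosome II, 11724204 to 11726533 in WBcel235), the single lactate dehydrogenase gene among the members, stood at 63.3, 75.1 and 63.0 CPM in the DMSO libraries at 5 days and at 92.3, 93.5 and 99.7 CPM after rotenone. Every rotenone library lay above every DMSO library. The log2 difference was 0.50 ± 0.05 (SE), a 1.42-fold rise (adjusted p = 4.78e-07), the largest rise among the called members. At 15 days the values were 52.9, 56.9 and 59.2 CPM in DMSO and 63.3, 61.9 and 63.0 CPM after rotenone, again without overlap, but the difference of 0.16 ± 0.06 was not past the threshold (adjusted p = 0.482).

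Cytosolic aconitase, aco-1 (X, 11339874 to 11343327), whose product is related to iron regulatory protein, was at 149, 154 and 149.7 CPM in DMSO and 201, 199 and 204 CPM after rotenone at 5 days. It rose 1.34-fold (log2 0.42 ± 0.04, adjusted p = 3.13e-08), with no overlap of libraries. Mitochondrial aconitase, aco-2, which carries the step inside the citric acid cycle, stood at 796, 844 and 755 CPM in DMSO and 862, 844 and 821 CPM after rotenone. The libraries of aco-2 overlapped and its difference of 0.08 ± 0.04 was not past the threshold (adjusted p = 0.0877), although without the DMSO library of replicate 2 it was, at 0.12 (adjusted p = 0.00813).

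The minor aldolase gene aldo-1 (III, 13563346 to 13564937) stood at 107, 125 and 117 CPM in DMSO and 152, 147 and 153 CPM after rotenone at 5 days, all rotenone libraries being the higher. It rose 1.29-fold (log2 0.37 ± 0.04, adjusted p = 1e-06). The major copy aldo-2 was at 809, 875 and 829 CPM and 848, 839 and 849 CPM, with overlapping libraries and a log2 difference of 0.01 ± 0.03 (adjusted p = 0.755). As a share of aldolase RNA per kb, aldo-1 made up 12.6% ± 0.467 (SD, n = 3) in DMSO and 15.6% ± 0.165 after rotenone. Shares here and below are descriptions with no test.

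Phosphoenolpyruvate carboxykinase, which makes phosphoenolpyruvate from oxaloacetate, is encoded by pck-1 (III, 62888 to 66260) and pck-2. The level of pck-1 was 169.7, 199 and 168 CPM in DMSO and 210.2, 208 and 215 CPM after rotenone, with the lowest rotenone library above the highest DMSO library, and rose 1.18-fold (log2 0.24 ± 0.05, adjusted p = 0.000834). The more abundant pck-2 was at 877, 958 and 836 CPM in DMSO and 858, 848 and 860.3 CPM after rotenone. Those libraries overlapped, with a log2 difference of -0.06 ± 0.04 (adjusted p = 0.239). The share of pck-1 in their RNA per kb was 19.4% ± 0.569 in DMSO and 22.8% ± 0.195 after rotenone.

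The other members of gluconeogenesis lay on the other side. Fructose-1,6-bisphosphatase, fbp-1, which reverses the phosphofructokinase step, stood at 118, 121 and 116 CPM in DMSO and 102, 101 and 103 CPM after rotenone, so that all 3 rotenone libraries were lower. It fell 1.15-fold (log2 -0.21 ± 0.03, adjusted p = 2.19e-05). Pyruvate carboxylase, pyc-1, which makes oxaloacetate from pyruvate, fell by less, with a log2 difference of -0.12 ± 0.03 (adjusted p = 0.00204), and did not pass with library totals.

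All 4 genes of the pyruvate dehydrogenase complex fell at 5 days with TMM factors, beside 23.3% of all genes tested. But with library totals pdhb-1 and dlat-1 alone passed the threshold and dld-1 changed sign. The E1 alpha subunit gene pdha-1 was at 303, 308 and 292 CPM in DMSO and 271, 272 and 274 CPM after rotenone. Its E1 beta partner pdhb-1 (IV, 3399672 to 3403908) was at 95.4, 98.3 and 92.9 CPM and 76.8, 80.2 and 78.3 CPM. The E2 acetyltransferase gene dlat-1 (V, 14445323 to 14447290) was at 266, 278 and 261 CPM and 219.6, 215 and 219 CPM. In each of the 3 genes every rotenone library lay below every DMSO library.

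The log2 differences were -0.15 ± 0.03 for pdha-1 (adjusted p = 0.000187), -0.28 ± 0.03 for pdhb-1 (adjusted p = 1.02e-06) and -0.30 ± 0.03 for dlat-1 (adjusted p = 7.19e-08). The E3 gene dld-1, whose product also serves oxoglutarate dehydrogenase, differed by -0.11 ± 0.03 (adjusted p = 0.00798), by 0.01 with library totals, and by -0.07 (adjusted p = 0.0609) without the DMSO library of replicate 2. With library totals the differences were -0.16 for pdhb-1, -0.18 for dlat-1 and -0.03 for pdha-1. Exons of pdha-1 overlap 209 bases of gpcp-2 on the other strand, which took 86391 counts against 184784 for pdha-1, and the kit does not mark strand, so their shared reads cannot be told apart.

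**Figure D3:**
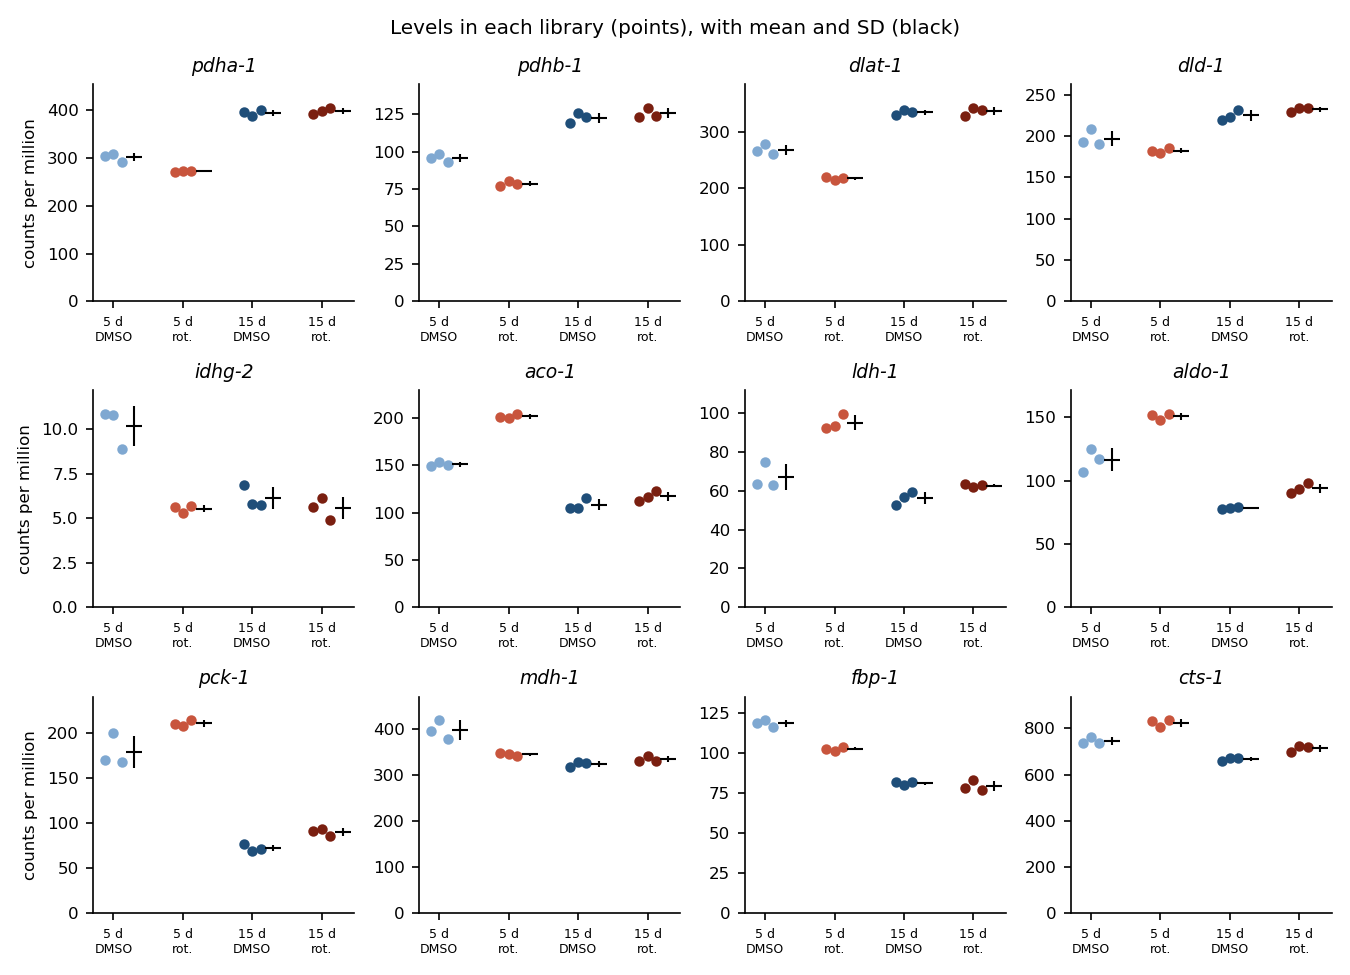
Levels of 12 genes in CPM, 1 point for each library and black marks for the mean and SD of 3 libraries, at 5 and 15 days in DMSO and after rotenone (rot.). The pyruvate dehydrogenase genes in the top row sit lower after rotenone at 5 days and overlap between treatments at 15 days, and ldh-1, aco-1, aldo-1, pck-1 and cts-1 sit higher after rotenone at 5 days.

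In the citric acid cycle, the gamma subunit copy idhg-2 of NAD isocitrate dehydrogenase (I, 6974558 to 6977071) had the largest fall of any called member at 5 days. It was at 10.9, 10.8 and 8.89 CPM in DMSO and at 5.63, 5.31 and 5.72 CPM after rotenone, all rotenone libraries being lower. The log2 difference of -0.88 ± 0.09 is a 1.84-fold fall (adjusted p = 2.4e-07). The main gamma copy idhg-1 was at 171, 179 and 172 CPM and 169, 171 and 169.6 CPM and differed by -0.03 ± 0.03 (adjusted p = 0.328), a value that was 0.09 with library totals. Per kb, idhg-2 gave 8.31% ± 0.809 of gamma subunit RNA in DMSO and 4.81% ± 0.195 after rotenone.

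Citrate synthase, the entry into the cycle, and a cytosolic isocitrate dehydrogenase rose at 5 days. The citrate synthase gene cts-1 stood at 737, 765 and 736 CPM in DMSO and 833, 805 and 838 CPM after rotenone and rose by 0.15 ± 0.03 on the log2 scale (adjusted p = 0.000211). The cytosolic NADP isocitrate dehydrogenase gene idh-1 was at 372, 391 and 386 CPM and 421, 414 and 449 CPM, a rise of 0.16 ± 0.03 (adjusted p = 0.000303). Both were higher in every rotenone library than in any DMSO library. Its mitochondrial counterpart idh-2 was at 42.3, 41.2 and 39.2 CPM and 43.8, 43.4 and 43.2 CPM, also without overlap, but its difference of 0.09 ± 0.04 missed the threshold (adjusted p = 0.0671).

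Further round the cycle, ogdh-1 and dlst-1, the E1 and E2 of oxoglutarate dehydrogenase, fell by 0.14 and 0.13 on the log2 scale with TMM factors, and neither passed with library totals. Of the 7 members from succinyl-CoA to oxaloacetate, none rose and 4 fell with TMM factors, beside 21.3% and 23.3% of all genes tested. Only mdh-1, a cytosolic form, fell with both scalings. Succinate dehydrogenase also acts in this stretch but is not among the 7. It was counted with the other genes of these pathways below, where its gene sdha-1 rose at 5 days. Cytosolic malate dehydrogenase, mdh-1, was at 395, 421 and 379 CPM in DMSO and 349, 347 and 342 CPM after rotenone, with all rotenone libraries lower (log2 -0.20 ± 0.03, adjusted p = 4.33e-05). Mitochondrial mdh-2 was at 355, 379.9 and 349 CPM and 355, 349.6 and 352 CPM, which overlapped (log2 -0.04 ± 0.03, adjusted p = 0.387, and 0.08 with library totals).

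The remaining 3 falls among these 7 members were small. The succinyl-CoA ligase alpha copy sucl-2 differed by -0.16 ± 0.03 (adjusted p = 0.000321) and fumarase, fum-1, by -0.15 ± 0.03 (adjusted p = 0.00072). The ADP-forming beta subunit gene suca-1, at 104, 110.4 and 104 CPM in DMSO and 98.8, 99.2 and 97.4 CPM after rotenone, differed by -0.11 ± 0.03 (adjusted p = 0.0165), and by 0.01 with library totals. Its call was lost without the DMSO library of replicate 2 (adjusted p = 0.101) or the rotenone libraries of replicates 1 (0.0520) and 3 (0.0557). The GDP-forming beta subunit gene sucg-1, at 93.5, 98.8 and 88.9 CPM and 85.5, 90.7 and 88.9 CPM, was not past the threshold (log2 -0.09 ± 0.04, adjusted p = 0.0528), but passed once the sequencing lane was added as a block (0.0466).

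Most of glycolysis itself showed small differences at 5 days. Among the hexose steps aldo-1 rose and hxk-2 fell, and among the triose steps gpd-2 rose and pgk-1 and pyk-1 fell. The hexokinase genes, for the step that traps glucose in the cell, were at 307, 297 and 306 CPM in DMSO and 309.7, 312 and 322 CPM after rotenone for hxk-1. For hxk-2 they were 74.6, 74.2 and 72.9 CPM and 70.4, 68.2 and 69.8 CPM, and for hxk-3 83.4, 83.9 and 80.5 CPM and 85.2, 83.7 and 84.9 CPM. The fall of hxk-2 (log2 -0.09 ± 0.03, adjusted p = 0.0209) was 0.03 with library totals, and was lost without the filter on low counts (adjusted p = 0.0725) and without the DMSO library of replicate 1 (adjusted p = 0.0757) or the rotenone library of replicate 2 (0.0896). The hxk-1 and hxk-3 differences, 0.05 ± 0.03 and 0.03 ± 0.03, were not past the threshold (adjusted p = 0.123 and 0.361).

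Phosphofructokinase, the committed step of glycolysis, was carried by pfk-1.1 at 73.3, 76.3 and 70.2 CPM in DMSO and 74.7, 72.0 and 72.2 CPM after rotenone, which overlapped (log2 -0.01 ± 0.03, and 0.11 with library totals). At its low level, pfk-1.2 was at 0.468, 0.350 and 0.389 CPM and 0.477, 0.436 and 0.624 CPM, and its difference of 0.36 ± 0.29 had too wide an error to be read at this depth (95% interval from -0.20 to 0.92). Phosphoglycerate kinase, pgk-1, was 146, 155 and 144 CPM in DMSO and 129, 133 and 132 CPM after rotenone (log2 -0.17 ± 0.03, adjusted p = 0.000118), with all rotenone libraries lower. The main pyruvate kinase gene pyk-1, for the last step to pyruvate, was 458, 477 and 442 CPM and 417, 414 and 406 CPM (log2 -0.15 ± 0.03, adjusted p = 0.000282), again with no overlap. Neither pgk-1 nor pyk-1 passed with library totals.

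The 4 glyceraldehyde-3-phosphate dehydrogenase genes include a pair on chromosome X, gpd-2 (3113443 to 3114689) and gpd-3 (3112091 to 3113341), and a pair on chromosome II, gpd-1 (10394129 to 10395349) and gpd-4 (10171268 to 10172498). Within each pair the sequences are known to be nearly identical and the treatment of reads that fit both copies is not stated, so values of a single copy are uncertain and the pair sums are safer. The sum of gpd-2 and gpd-3 was 468, 528 and 460.1 CPM in DMSO and 516, 516 and 531 CPM after rotenone at 5 days, with overlap. The sum of gpd-1 and gpd-4 was 165, 183 and 175 CPM in DMSO and 175, 172 and 184 CPM after rotenone, also with overlap. By single gene, gpd-2 was 209, 236 and 206 CPM and 239, 238 and 247 CPM and rose by 0.15 ± 0.04 (adjusted p = 0.00287). Its neighbour gpd-3 was 259, 293 and 254 CPM and 277, 278 and 284 CPM and differed by 0.06 ± 0.04 (adjusted p = 0.246), but by 0.12 (adjusted p = 0.00240) without the DMSO library of replicate 2.

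Tissue markers also differed after rotenone at 5 days. The summed level of 7 body wall muscle markers was 1718 to 1880 CPM in DMSO and 1417 to 1449 CPM after rotenone, with 2 called up and 5 called down and none at 0. For 6 of the 7 intestine markers, those matched in the table, it was 662 to 702 CPM and 558 to 585 CPM, for 10 germ line and oocyte markers 6248 to 6417 CPM and 5845 to 5981 CPM, and for 6 pharynx markers 419 to 439 CPM and 509 to 528 CPM. Neuron markers were at 455 to 484 CPM and 499.6 to 510.02 CPM, and epidermis markers at 478 to 504 CPM and 548 to 557 CPM. Of the 6 intestine markers 2 were called down and 4 were not called, with a median log2 difference of -0.03. The germ line and oocyte list had 1 called up and 5 down, and the pharynx list 5 up. Among neuron markers 3 were called up, and among epidermis markers 3 up and 1 down. The part of these markers in the differences of the 45 genes was not tested.

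At 15 days, aldo-1 and pck-1 were the 2 members still past the threshold, both higher after rotenone, and none was lower, while 0.408% of all genes tested were called, 0.280% rising and 0.128% falling. The count was 6 without the filter on low counts, 4 with DESeq2, and 3 with the lane block or with 2 groups only. The level of aldo-1 was 77.6, 78.5 and 79.1 CPM in DMSO and 90.3, 93.4 and 97.7 CPM after rotenone, without overlap, a 1.2-fold difference (log2 0.26 ± 0.04, adjusted p = 0.0125). Its call was lost without the DMSO library of replicate 1 (log2 0.25, adjusted p = 0.0511) or the rotenone library of replicate 3 (0.23, adjusted p = 0.0523). The level of pck-1 was 76.3, 69.5 and 71.3 CPM in DMSO and 91.2, 93.6 and 85.6 CPM after rotenone, also apart, a 1.24-fold difference (log2 0.32 ± 0.06, adjusted p = 0.0128). That call was lost without the DMSO library of replicate 2 (log2 0.29, adjusted p = 0.0502) or the rotenone library of replicate 2 (0.29, adjusted p = 0.0534).

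The same 2 genes had risen at 5 days. Libraries did not overlap at 15 days for 11 members that were higher after rotenone and for 1 that was lower, beside 11.1% of all genes in either direction, 5.46% higher and 5.63% lower. The chromosome X pair was among them, with sums of 154, 154 and 157 CPM in DMSO and 174, 179.6 and 174 CPM after rotenone. For gpd-3 the log2 difference of 0.19 ± 0.04 was just short of the threshold (adjusted p = 0.0701) and passed with the lane block (adjusted p = 0.0235), and gpd-2 differed by 0.17 ± 0.04 (adjusted p = 0.12).

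The pyruvate dehydrogenase genes did not pass at 15 days, and their 95% intervals leave room for small differences. The log2 intervals ran from -0.04 to 0.07 for pdha-1, from -0.03 to 0.10 for pdhb-1, from -0.04 to 0.07 for dlat-1 and from -0.02 to 0.11 for dld-1. For idhg-2, at 6.88, 5.80 and 5.77 CPM in DMSO and 5.65, 6.15 and 4.93 CPM after rotenone with overlap, the difference was -0.14 ± 0.10 (adjusted p = 0.825). For aco-1, at 104, 105 and 116 CPM and 112, 116 and 123 CPM, it was 0.11 ± 0.04 (adjusted p = 0.447), again with overlap.

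Whether the rotenone difference itself changed between ages was tested by the interaction, the difference at 15 days minus that at 5 days. With TMM factors 15 members had a positive and 3 a negative interaction past the threshold. Over all genes 25.7% passed in either direction, 15.4% positive and 10.3% negative. But with library totals 3 members were positive and 11 negative, beside 939 and 4296 of the 17166 genes tested. The calls for pdhb-1, dlat-1, idhg-2, aco-1, ldh-1 and idh-1 were made with both scalings, but that of idh-1 was lost with RLE factors (adjusted p = 0.0670) and DESeq2 (0.0738). The negative ones were ldh-1 (-0.35 ± 0.08, adjusted p = 0.00307), aco-1 (-0.31 ± 0.05, adjusted p = 0.00028) and idh-1 (-0.14 ± 0.04, adjusted p = 0.022), which had been higher after rotenone at 5 days. Among the positive ones, idhg-2 had an interaction of 0.74 ± 0.13 (adjusted p = 0.000562), pdhb-1 of 0.32 ± 0.05 (adjusted p = 5.55e-05) and dlat-1 of 0.31 ± 0.04 (adjusted p = 1.4e-05). For aldo-1 (-0.11 ± 0.06, adjusted p = 0.188) and pck-1 (0.08 ± 0.07, adjusted p = 0.482) no change of the rotenone difference with age was detected, though without the DMSO library of replicate 2 at 5 days that of aldo-1 was -0.16 (adjusted p = 0.0408).

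More of the 45 genes were called with age than after rotenone. In DMSO worms 11 members rose and 27 fell from 5 to 15 days, while 76.2% of all genes tested were called, 35.2% rising and 40.9% falling. After rotenone 12 rose and 22 fell, against 79.5% of all genes, 36.6% rising and 42.9% falling. All 4 gluconeogenesis genes and ldh-1 fell in both treatments, and all 4 pyruvate dehydrogenase genes rose in both. In DMSO the libraries of the ages did not overlap for 10 members that were higher at 15 days and 28 that were lower, against 77.0% of all genes, 35.4% higher and 41.7% lower. After rotenone this held for 12 that were higher and 25 that were lower, against 81.3% of all genes, 37.3% higher and 44.0% lower. The median log2 differences of the 45 were -0.15 in DMSO and -0.06 after rotenone, beside -0.06 and -0.09 over all genes. After rotenone the members' median was 0.03 with RLE factors, with 18 up and 21 down, and 0.03 with DESeq2, with 18 up and 19 down. With library totals it was -0.16, with 11 up and 29 down. Over all genes these settings gave, in the same order, 6959 up and 6721 down, 6686 and 6194, and 5404 and 8186. Between the 2 comparisons, which share no library, 32 members were called in the same direction, 84.2% of those called in DMSO and 94.1% of those called after rotenone, and none in opposite directions. Over all genes tested the same shares were 88.2% and 84.5%.

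The falls with age were largest in the muscle-associated glyceraldehyde-3-phosphate dehydrogenase pair. At 15 days gpd-2 was at 62.8, 60.6 and 63.2 CPM in DMSO and 70.1, 71.0 and 69.2 CPM after rotenone, 3.49-fold and 3.44-fold lower than at 5 days (log2 -1.80 ± 0.04 and -1.78 ± 0.04). The level of gpd-3 was 90.9, 93.4 and 94.1 CPM and 103, 109 and 105 CPM, 2.89-fold and 2.65-fold lower. Every 15-day library of both genes lay below every 5-day library. The pair sum was 3.13-fold lower in DMSO and 2.97-fold lower after rotenone. In both treatments the adjusted p of gpd-2 and gpd-3 was 1.53e-16 or smaller.

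The other pair moved the opposite way. At 15 days gpd-1 was at 159, 167 and 163 CPM in DMSO and 160.2, 167 and 158 CPM after rotenone, up from 121, 132 and 127 CPM and 127, 126 and 135 CPM (log2 0.37 ± 0.04 and 0.32 ± 0.04, adjusted p = 1.47e-08 and 7.58e-08). For gpd-4 the 15-day values were 61.2, 63.2 and 68.7 CPM and 65.5, 66.9 and 66.1 CPM, up from 44.1, 51.5 and 47.5 CPM and 47.9, 45.7 and 49.3 CPM (log2 0.43 ± 0.05 and 0.47 ± 0.05). All 15-day libraries of both were above all 5-day libraries of the same treatment, and the pair sum was 1.31-fold and 1.29-fold higher. Per kb, the DMSO shares of gpd-2 and gpd-3 went from 31.7% ± 0.333 and 40.4% ± 0.669 at 5 days to 15.3% ± 0.489 and 23.5% ± 0.0717 at 15 days. Those of gpd-1 and gpd-4 went from 20.2% ± 0.820 and 7.67% ± 0.266 to 43.8% ± 0.810 and 17.4% ± 0.744, so gpd-3 led at 5 days and gpd-1 at 15 days.

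**Figure D4:**
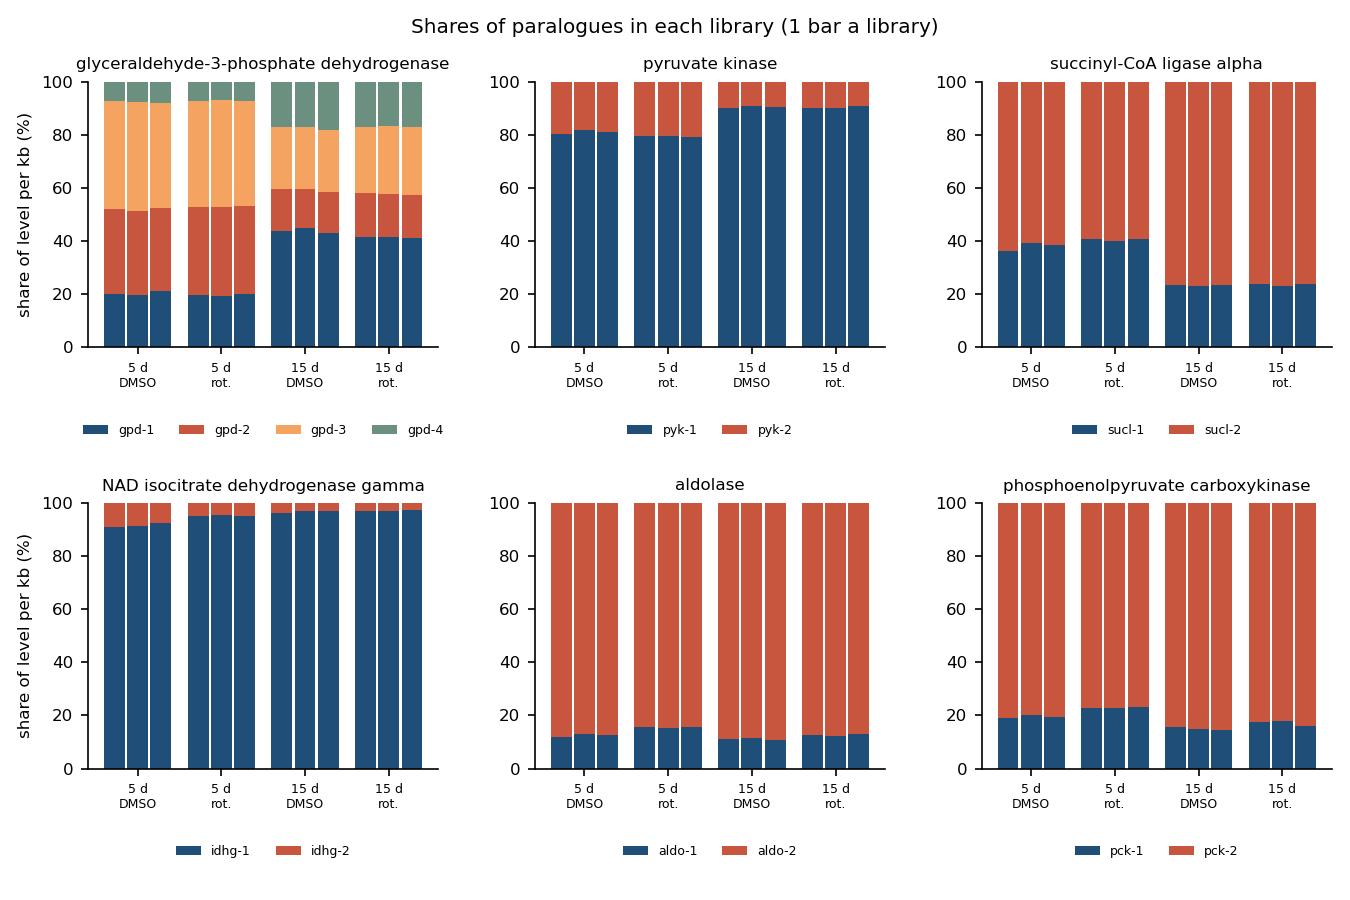
Share of each paralogue in the level per kb of its set, as percent, 1 bar for each of the 12 libraries, in 6 sets of enzymes (rot., rotenone). The blue gpd-1 and green gpd-4 parts are wider in all 6 libraries at 15 days than at 5 days, the pyk-2 and sucl-1 parts narrower, and idhg-2 is widest in the DMSO libraries at 5 days.

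The minor pyruvate kinase copy fell more than the main one in these libraries, with no test between copies. The minor copy pyk-2 (IV, 10909913 to 10913078) was at 49.7, 46.2 and 45.8 CPM in DMSO at 5 days and 19.98, 18.6 and 19.8 CPM at 15 days, 2.43-fold lower (log2 -1.27 ± 0.05, adjusted p = 3.62e-15). After rotenone it went from 47.1, 46.7 and 46.5 CPM to 19.8, 20.9 and 18.6 CPM, 2.36-fold lower. No 15-day library reached a 5-day one. The main copy pyk-1 was 419, 421 and 424 CPM in DMSO and 411, 434 and 418 CPM after rotenone at 15 days, with log2 differences from 5 days of -0.12 ± 0.03 in DMSO (adjusted p = 0.000832, and 0.0728 with RLE factors) and 0.03 ± 0.03 after rotenone (adjusted p = 0.358, and -0.07 with library totals). The share of pyk-2 per kb went from 19.1% ± 0.884 to 9.57% ± 0.344 in DMSO.

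Phosphoenolpyruvate carboxykinase fell in both copies. From its 5-day levels, pck-1 fell 2.47-fold in DMSO (log2 -1.31 ± 0.05, adjusted p = 2.68e-14) and 2.34-fold after rotenone (log2 -1.23 ± 0.05). At 15 days pck-2 was at 496, 476 and 505 CPM in DMSO and 509, 520.5 and 536 CPM after rotenone, 1.81-fold and 1.64-fold lower. Libraries of the 2 ages did not overlap in either gene. The other 2 genes of gluconeogenesis fell as well, with log2 differences in DMSO of -0.54 ± 0.03 for fbp-1 and -0.43 ± 0.03 for pyc-1. Outside the member list, icl-1, the glyoxylate cycle gene for isocitrate lyase and malate synthase that supplies gluconeogenesis from fat, fell by 1.92 in DMSO and 1.49 after rotenone.

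In the hexose steps of glycolysis, gpi-1, aldo-1, aldo-2, tpi-1 and hxk-2 fell with age in both treatments. Glucose-6-phosphate isomerase, gpi-1, was at 228, 229.9 and 225 CPM at 5 days and 149.7, 148 and 154 CPM at 15 days in DMSO (log2 -0.59 ± 0.02, adjusted p = 3.39e-14), without overlap. At 15 days aldo-2 was at 648, 638 and 669.6 CPM in DMSO and 656, 696 and 667 CPM after rotenone, with log2 differences from 5 days of -0.36 ± 0.03 and -0.33 ± 0.03. Hexokinase levels at 15 days were 304, 308 and 302 CPM in DMSO and 303, 309 and 296 CPM after rotenone for hxk-1, whose differences from 5 days, 0.00 ± 0.03 and -0.05 ± 0.03, were not past the threshold. They were 61.0, 61.8 and 61.9 CPM and 60.9, 60.6 and 58.6 CPM for hxk-2, which fell in both (log2 -0.26 ± 0.03 and -0.21 ± 0.03). For hxk-3 they were 79.0, 80.2 and 78.7 CPM and 80.0, 81.9 and 81.6 CPM, with differences of -0.06 ± 0.03 and -0.06 ± 0.03 that were not past the threshold.

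The 15-day level of pfk-1.1 was 73.6, 70.7 and 73.2 CPM in DMSO and 74.3, 75.0 and 76.5 CPM after rotenone, with no call in either age comparison. The rare copy pfk-1.2 was at 1.11, 0.707 and 0.643 CPM in DMSO and 0.859, 0.570 and 0.520 CPM after rotenone. It rose by 1.02 ± 0.27 in DMSO (adjusted p = 0.0023) but the difference of 0.37 ± 0.26 after rotenone was not past the threshold (adjusted p = 0.202), and the 2 effects were not told apart (interaction adjusted p = 0.231). Among the triose steps enol-1 and ipgm-1 fell in both treatments, with log2 differences of -0.41 ± 0.03 and -0.37 ± 0.03 for enol-1. The rise of pgk-1 in DMSO, 0.08 ± 0.03 (adjusted p = 0.0268), was lost without the filter on low counts (adjusted p = 0.431), and without the 5-day DMSO libraries of replicates 1 (adjusted p = 0.0851) and 3 (0.137) or the 15-day one of replicate 2 (0.121). After rotenone pgk-1 rose by 0.27 ± 0.03, from 129, 133 and 132 CPM to 156, 161 and 157 CPM.

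Pyruvate dehydrogenase genes were higher at 15 days. In DMSO the levels at 15 days were 396, 388 and 400.2 CPM for pdha-1 and 119, 125 and 123 CPM for pdhb-1. Those of dlat-1 were 329, 338 and 335 CPM, and those of dld-1 219, 223 and 232 CPM against 192, 208 and 190.3 CPM at 5 days. In all 4 genes every 15-day library was above every 5-day library. The rises were 0.39 ± 0.03, 0.36 ± 0.03, 0.32 ± 0.03 and 0.19 ± 0.03 on the log2 scale in the same order, with adjusted p of 2.58e-05 or smaller.

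After rotenone the 15-day levels were 392, 399 and 405 CPM for pdha-1, 123, 129 and 124 CPM for pdhb-1 and 329, 343 and 339.5 CPM for dlat-1. Starting from lower 5-day levels, they rose by 0.55 ± 0.03, 0.68 ± 0.03 and 0.63 ± 0.03, and dld-1 by 0.35 ± 0.03. The summed level of the 4 genes was 837 to 893 CPM in DMSO and 746 to 756 CPM after rotenone at 5 days, and 1064 to 1090.2 CPM and 1073 to 1105 CPM at 15 days.

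In the citric acid cycle the copies for the gamma subunit of NAD isocitrate dehydrogenase were called in opposite directions with age in DMSO, with no test between copies. The main gamma subunit gene idhg-1 (III, 4568797 to 4571865) was at 279, 287 and 293 CPM in DMSO and 286, 289.8 and 293 CPM after rotenone, 1.65-fold and 1.70-fold higher than at 5 days (log2 0.72 ± 0.03 and 0.77 ± 0.03), with all 15-day libraries the higher. Over the same interval idhg-2 fell in DMSO (log2 -0.73 ± 0.09, adjusted p = 5.13e-07) and differed by 0.01 ± 0.10 after rotenone (adjusted p = 0.955). The alpha and beta subunit genes idha-1 and idhb-1 did not follow idhg-1: in DMSO they differed by -0.08 ± 0.03 and -0.22 ± 0.04, both past the threshold as falls with TMM factors. That of idha-1 was lost with RLE factors (-0.02), library totals (-0.05) and DESeq2 (-0.03). After rotenone idhb-1 fell (log2 -0.18 ± 0.04), but was not past the threshold with DESeq2 (adjusted p = 0.0717). The exons of idhg-1 overlap 102 bases of sel-5 on the other strand, which took 105087 counts against 123678 for idhg-1, so reads from the shared stretch cannot be told apart.

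In succinyl-CoA ligase, the step that yields ATP or GTP, the alpha copies were also called in opposite directions. For sucl-1 (X, 14754026 to 14756081) the levels were 97.6, 114 and 107 CPM at 5 days and 70.5, 70.7 and 73.9 CPM at 15 days in DMSO, so that it fell (log2 -0.57 ± 0.05, adjusted p = 1.2e-09). For sucl-2 (III, 900138 to 901412) they were 135, 139.5 and 135 CPM and 183, 189 and 191 CPM, so that it rose (log2 0.46 ± 0.03, adjusted p = 7.47e-11). Neither gene had overlapping libraries. After rotenone sucl-1 went from 102, 101 and 111 CPM to 72.7, 73.7 and 74.4 CPM and sucl-2 from 119, 119 and 127 CPM to 186, 194 and 187 CPM. The share of sucl-1 in alpha subunit RNA per kb went from 38.1% ± 1.56 to 23.2% ± 0.310 in DMSO and from 40.4% ± 0.309 to 23.5% ± 0.398 after rotenone.

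Of the beta subunits, sucg-1 was at 115, 114 and 115 CPM in DMSO and 116, 115 and 116 CPM after rotenone at 15 days, rises of 0.29 ± 0.03 and 0.39 ± 0.03. The level of suca-1 was 108, 104 and 113 CPM and 107, 112 and 113 CPM, with a difference of 0.03 ± 0.03 in DMSO that was not past the threshold and a rise of 0.17 ± 0.03 after rotenone that was lost with library totals (log2 0.06, adjusted p = 0.0843). Cytosolic aconitase aco-1 fell in both treatments (log2 -0.47 ± 0.04 in DMSO and -0.79 ± 0.04 after rotenone), while aco-2, at 844, 826 and 856 CPM and 853, 898 and 909 CPM, was not called at either. The 15-day levels of idh-1 were 345, 351 and 358 CPM in DMSO and 354, 360.1 and 352 CPM after rotenone, both lower than at 5 days (log2 -0.13 ± 0.03 and -0.27 ± 0.03), the call in DMSO being lost with RLE factors (adjusted p = 0.0791) and DESeq2 (0.0609). Those of idh-2 were 37.3, 37.3 and 38.7 CPM and 37.7, 37.0 and 40.1 CPM, also lower (log2 -0.11 ± 0.04 and -0.18 ± 0.04), the first call being lost without the 5-day DMSO library of replicate 1 (adjusted p = 0.0553). It was lost as well with RLE factors (0.249), library totals (0.0888) and DESeq2 (0.303), and the call after rotenone with DESeq2 (0.0632).

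The cytosolic malate dehydrogenase gene was called with age in DMSO. At 15 days mdh-1 was at 318, 329 and 328 CPM in DMSO and 331, 342 and 332 CPM after rotenone. In DMSO it had fallen (log2 -0.29 ± 0.03, adjusted p = 8.28e-08), and after rotenone it differed by -0.05 ± 0.03 (adjusted p = 0.179). The level of mdh-2 was 342, 351 and 351 CPM and 357, 377 and 348 CPM and was not called at either. Citrate synthase, cts-1, stood at 660.2, 670.1 and 674 CPM in DMSO and 699, 725 and 719 CPM after rotenone, lower than at 5 days in both (log2 -0.16 ± 0.03 and -0.21 ± 0.03). The fall of dlst-1 after rotenone, -0.06 ± 0.02 (adjusted p = 0.0471), was 0.03 with RLE size factors and with DESeq2, was lost with 2 groups only, and was lost in 5 of 6 fits that left out a library (adjusted p from 0.0830 to 0.111).

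Tissue markers differed with age as well. The summed level of the 7 body wall muscle markers went from 1718 to 1880 CPM at 5 days to 829 to 942 CPM at 15 days in DMSO, and from 1417 to 1449 CPM to 720.1 to 851 CPM after rotenone, with all 7 called down in DMSO, and 6 down and 1 up after rotenone. The 6 intestine markers went from 662 to 702 CPM to 200.02 to 221 CPM in DMSO, all 6 called down, and the 6 pharynx markers from 419 to 439 CPM to 179.6 to 198 CPM, all 6 called down. The 10 germ line and oocyte markers were at 6248 to 6417 CPM and 6637 to 6694 CPM, 6 called up and 1 down. Neuron markers were at 455 to 484 CPM and 424 to 436 CPM, epidermis markers at 478 to 504 CPM and 353 to 366 CPM, and sperm markers at 1.95 to 2.55 CPM and 2.5 to 4.54 CPM. In DMSO 6 of the 7 neuron markers were called down and 1 up, with a median log2 difference of -0.84. Of the 6 epidermis markers 4 were called down and 2 up, and of 6 sperm markers tested 1 down and 3 up. Apart from 1 sperm marker at 5 days, none of these markers was at 0, and their part in the age differences of the 45 genes was not tested.

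A list of 25 other genes of these pathways (succinate dehydrogenase, pyruvate carrier and kinase, pentose phosphate enzymes and others) was matched for 24. After rotenone at 5 days 2 rose and 14 fell with TMM factors, beside 21.3% and 23.3% of all genes. With library totals 8 rose and 3 fell, beside 6500 and 1772 of the 17166 genes tested. The ATP citrate lyase gene acly-1 rose by 0.36 ± 0.04 and the succinate dehydrogenase gene sdha-1 by 0.12 ± 0.04. The mitochondrial pyruvate carrier gene mpc-1 differed by -0.32 ± 0.04 and the ribose-5-phosphate isomerase gene rpia-1 by -0.32 ± 0.03, in the direction of the pyruvate dehydrogenase genes. At 15 days icl-1 alone was called, 0.46 ± 0.04 higher after rotenone (adjusted p = 1.49e-06), as pck-1 was. From 5 to 15 days 8 rose and 14 fell in DMSO, beside 35.2% and 40.9% of all genes. With RLE factors 9 rose and 9 fell, beside 6587 and 6489 of 17166 genes. After rotenone 11 rose and 8 fell, beside 36.6% and 42.9%. There 15 rose and 5 fell with RLE factors, beside 6959 and 6721 of 17166 genes. With library totals 7 rose and 10 fell, beside 5404 and 8186. The aspartate aminotransferase gene got-2.1 had the largest rise of the list in both treatments, 0.87 ± 0.04 in DMSO.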

How the data were processed

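Total RNA was made into libraries with a TruSeq RNA kit (version 2), per the labels' protocols, which does not mark strand. The submitters' processing notes name bcl2fastq 1.8.3, STAR 2.4.1d, featureCounts 1.4.6-p4 and WBcel235, and give no setting for strand or for reads that fit several places. The authors deposited whole-number counts per gene for 12 libraries, 34307432 to 53716605 in total, and a table of RPKM. In that deposited RPKM table only 8.33% of values were scaled by their own library's total, since the 12 totals had been recycled down the columns, so it was used for gene lengths alone. With the recycled totals, implied lengths varied by at most 0.0523% over the 3862 genes that reached 2000 counts in all 12 libraries. Symbols came from a WormBase name table and positions from Ensembl release 115 (46449 identifiers matched, 299 not).

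All 12 libraries entered 1 edgeR model of 4 groups (edgeR 4.0.16, R 4.3.3): TMM factors, a minimum count of 10 (filterByExpr), the quasi-likelihood F test, and Benjamini-Hochberg adjustment over 17166 genes with a threshold of 0.05. Standard errors are the log2 difference over the root of F, and 95% intervals take a normal quantile of them. The common coefficient of variation between libraries of a group, fitted by edgeR for all genes together and beyond counting noise, was 3.41%. No comparison was paired. Sequencing lane equals replicate number in the labels and was run as a block. Deviations of same-lane libraries correlated from -0.05 to 0.18 (median 0.017), and those of different-lane libraries from -0.19 to 0.12 (median -0.004). Pairs of replicates differed by 3.04 to 13.1 times counting noise on average over genes, and by 1.24 to 2.61 times at the median gene, so none was counted as a repeat. The alternatives were RLE size factors, library totals, no filter, DESeq2 1.42.0, the block, 2 groups only, and each library left out. Values in every library are given for paralogues and for the 4 largest called rises and falls of each comparison, and for other members whose results are described. The 45 genes were taken by symbol, with no rule on their values, but they and the marker and pathway lists were chosen with earlier results of these data known.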

Additional observations from a re-analysis of the deposited data

Results flagged for a closer look

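For 18 of the 45 genes the rotenone difference itself differed between ages by the interaction test (edgeR's quasi-likelihood test, adjusted over all genes tested; log2, the older age minus the younger). The 3 negative values were -0.35 ± 0.08 for ldh-1, -0.31 ± 0.05 for aco-1 and -0.14 ± 0.04 for idh-1. The positive values in glycolysis and gluconeogenesis were 0.12 ± 0.04 for gpi-1, 0.19 ± 0.04 for pgk-1, 0.15 ± 0.04 for pyk-1, 0.17 ± 0.04 for fbp-1 and 0.20 ± 0.04 for pyc-1. In pyruvate dehydrogenase they were 0.16 ± 0.04 for pdha-1, 0.32 ± 0.05 for pdhb-1, 0.31 ± 0.04 for dlat-1 and 0.16 ± 0.05 for dld-1. In the citric acid cycle, counted with its cytosolic forms, they were 0.74 ± 0.13 for idhg-2, 0.18 ± 0.04 for ogdh-1, 0.10 ± 0.03 for dlst-1, 0.18 ± 0.04 for sucl-2, 0.19 ± 0.05 for fum-1 and 0.25 ± 0.05 for the cytosolic mdh-1. Of all genes tested, 25.7% passed the same test. The calls of gpi-1 (without the 5-day rotenone library of replicate 1, adjusted p = 0.0522), idh-1 (without the 5-day rotenone or 15-day DMSO library of replicate 3, 0.0759 and 0.0708) and dlst-1 (in 7 of 12 fits, 0.0505 to 0.121) were lost when a library was left out. That of idh-1 was also lost with RLE factors and DESeq2, that of dlst-1 without the filter on low counts, and those of 12 of the 15 positive genes with library totals, all but pdhb-1, dlat-1 and idhg-2. Groups of 3 libraries were not searched for single outlying values.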

How the results depend on the processing

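With library totals, members called at 5 days numbered 22 up and 5 down (7 and 16 with TMM factors) and all genes 6500 and 1772 (3662 and 4006), and the interaction gave 3 positive and 11 negative members (15 and 3) and 939 and 4296 genes (2643 and 1776). The age difference after rotenone gave 18 up and 21 down with RLE factors, 11 and 29 with totals and 18 and 19 with DESeq2 (12 and 22). In DMSO it gave 15 and 23, 13 and 25, and 13 and 24 (11 and 27). Totals moved the median of all genes to 0.15, -0.19 after rotenone with age, and -0.15 for the interaction. Changes of sign are listed only for members past the threshold with TMM factors, with the alternative or with both. Members past it with neither were not listed. Signs turned with totals at 5 days for hxk-2 (0.032), pfk-1.1 (0.114), gpd-4 (0.117), dld-1 (0.0076), idha-1 (0.092), idhg-1 (0.087), suca-1 (0.013) and mdh-2 (0.083), with age after rotenone for pyk-1 (-0.072), ogdh-1 (-0.071) and mdh-2 (-0.068), and in the interaction for gpi-1 (-0.016) and dlst-1 (-0.033). With RLE factors and with DESeq2 they turned with age after rotenone for idha-1 (0.065 and 0.062) and dlst-1 (0.034 and 0.031). At 15 days 2 members and 70 genes were called. At an unadjusted p under 0.05 there were 10 of the 45 members and 1236 of the 17166 genes tested. Those called were 6 members and 322 genes without the filter, 4 members with DESeq2, 118 genes with the lane block and 45 genes with 2 groups only. The block made suca-1 pass in the interaction (adjusted p = 0.0480) and changed no member's call beyond those named. The cause was not tested. Leaving out a library gave 22 to 25 members and 6436 to 6990 genes at 5 days, 1 to 2 and 31 to 77 at 15 days, 36 to 39 and 12594 to 12792 with age in DMSO, 33 to 35 and 13199 to 13360 after rotenone, and 16 to 21 and 3445 to 4222 in the interaction. Depth limited pfk-1.2 most, at 18 to 45 counts in a library.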
